A study of Mus musculus with 7 samples.

Results

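The chemokine ligand genes were every gene whose symbol begins with Ccl or Cxcl followed by a digit, together with Xcl1, Cx3cl1, Pf4 and Ppbp, as listed in the gene table of 7 single-cell RNA libraries of mouse liver. The rule found 46 of the 32285 listed genes, which carry 40 symbols because 5 symbols (Ccl19, Ccl21a, Ccl21b, Ccl21c and Ccl27a) stand for several gene copies. All 46 were found by identifier in the GENCODE M21 annotation as protein-coding genes. Expression was followed from class to class of cells within each library, and the rule itself reads only gene symbols.

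The study crossed Alb-Cre mice, in which Cre recombinase is driven by the albumin enhancer and promoter, with CAG-MYC mice on a C57BL/6J background, so that human MYC is switched on in cells of the hepatocyte lineage and liver tumors follow (ABC-Myc). The study calls NEJ634, NEJ687, NEJ709 and NEJ723 tumors in its text. It compared them with 3 healthy livers that it does not name there, which leaves NEJ638, NEJ654 and NEJ677 for these. One description of NEJ709 gives the name NEJ634, and that library is called NEJ709 here after its title. Its called cells shared 85 barcodes with those of NEJ634. The normal controls were littermates that lacked the Alb-Cre allele, the CAG-MYC allele or both. The public labels give all 7 libraries the same disease state, and the ages of these mice and the genotype of each control are not given in the sources used here. Values are therefore given by library, no test was made between tumor and healthy libraries, and a group difference cannot be read from them. The tumor-bearing mice were perfused with PBS and EDTA and then with collagenase, the tumor mass was dissociated with warm collagenase, and no sort was described. The libraries held blood cells as well as liver cells. The study reports foci of extramedullary hematopoiesis in the tumors, and the source of the blood cells was not tested here.

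Chemokines are small secreted proteins that bind to G protein-coupled receptors on leukocytes and guide where these cells move. The CXC ligands with an ELR motif (Cxcl1, Cxcl2, Cxcl3, Cxcl5 and Ppbp) act mainly on neutrophils through Cxcr2, the interferon-induced ligands Cxcl9 and Cxcl10 act on T and NK cells through Cxcr3, and most CC ligands act on monocytes, macrophages, lymphocytes, eosinophils or dendritic cells. In the liver, resident macrophages (Kupffer cells), sinusoidal endothelium, stellate cells and hepatocytes can all make chemokines.

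Of the 30 members that were measured, 12 lie on chromosome 11 and 10 on chromosome 5, where the CC and CXC genes stand in clusters. The sequences below are the 250 bases before the gene start of 5 neighbours on chromosome 5, from RefSeq on build GRCm38.p6 and written 5′ to 3′ on the strand of the gene. They are shown because these genes lie side by side, Cxcl1, Cxcl2 and Cxcl3 within one stretch and Cxcl9 next to Cxcl10, and their highest levels were in different classes in some libraries and in the same class in others. Capitals mark every match on either strand to GGG, any 3 bases and TTCC (an NF-kB motif) or to GAAA, any 2 bases and GAAA (an interferon-stimulated response element, ISRE), and matches that overlap run together.
Cxcl1, chr5:90890995-90891244, + strand: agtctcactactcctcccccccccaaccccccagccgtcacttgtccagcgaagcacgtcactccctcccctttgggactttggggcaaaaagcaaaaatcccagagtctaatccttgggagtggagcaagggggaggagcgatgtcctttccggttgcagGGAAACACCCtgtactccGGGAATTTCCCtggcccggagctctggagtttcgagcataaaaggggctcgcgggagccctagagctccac
Cxcl2, chr5:90903649-90903898, + strand: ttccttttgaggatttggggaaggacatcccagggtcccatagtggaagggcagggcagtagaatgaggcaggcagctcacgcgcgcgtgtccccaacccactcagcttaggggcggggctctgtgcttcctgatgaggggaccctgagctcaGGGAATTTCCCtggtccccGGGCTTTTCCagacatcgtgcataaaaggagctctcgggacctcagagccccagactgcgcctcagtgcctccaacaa
Cxcl3, chr5:90785851-90786100, + strand: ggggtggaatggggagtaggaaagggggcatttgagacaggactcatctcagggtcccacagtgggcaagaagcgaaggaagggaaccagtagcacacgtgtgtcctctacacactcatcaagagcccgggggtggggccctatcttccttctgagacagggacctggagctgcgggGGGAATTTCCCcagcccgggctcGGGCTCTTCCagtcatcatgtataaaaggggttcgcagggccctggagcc
Cxcl9, chr5:92328080-92328329, - strand: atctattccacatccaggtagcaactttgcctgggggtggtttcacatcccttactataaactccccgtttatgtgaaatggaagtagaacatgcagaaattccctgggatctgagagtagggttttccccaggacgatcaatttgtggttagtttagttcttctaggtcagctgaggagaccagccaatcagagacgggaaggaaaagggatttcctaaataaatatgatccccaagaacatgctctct
Cxcl10, chr5:92348890-92349139, - strand: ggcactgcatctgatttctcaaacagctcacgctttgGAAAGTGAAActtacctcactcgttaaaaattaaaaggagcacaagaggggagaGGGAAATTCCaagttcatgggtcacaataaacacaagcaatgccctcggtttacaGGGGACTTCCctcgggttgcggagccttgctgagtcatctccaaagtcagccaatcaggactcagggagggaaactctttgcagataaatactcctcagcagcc

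Promoters were listed for 29 of the 40 symbols, with 35 windows in all because some symbols had several. The NF-kB letters were in 7 of these 35 windows (Ccl1, Ccl20, Ccl9, Cxcl1, Cxcl10, Cxcl2 and Cxcl3) and in 5.56% of all 32851 promoter windows of the same length. The ISRE letters were in 3 of the 35 windows (Ccl19, Cxcl10 and Cxcl14) and in 3.44% of all windows. Cxcl1, Cxcl2 and Cxcl3 shared the run GGGAATTTCCC, which matches on both strands, and Cxcl10 was the only member with both motifs. A match says only that these letters stand in the window.

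The 7 libraries held 40214395 to 132485391 UMIs (unique molecular identifiers, each standing for 1 captured RNA molecule), and 72578 cells were analysed. These fell into 65 clusters, of which 40, with 44800 cells, could be named as 1 of 16 classes from marker genes. Each class with at least 20 cells in a library had at least 8 of its markers at 10 CPM or more there. In NEJ634 and NEJ687 most hepatocyte-lineage-like cells came from cluster 0, led by genes such as H19, Igf2 and Afp. The study presumes that its clusters highest in Afp and Igf2 are tumor cells. In NEJ638 most came from cluster 33, led by genes such as Cyp2e1 and Alb. In NEJ654 and NEJ677 most came from cluster 36, led by genes such as Car3 and Fabp1. Monocyte-like cells were all of cluster 6, led by genes such as F13a1, Vcan, Spp1, Gpnmb and Trem2. In NEJ723 this class had 8 of its 10 markers at 10 CPM or more. Cholangiocyte-like cells were all of cluster 32 (74.2% from NEJ723), led by genes such as Cldn7, Cldn6 and Epcam. Among the clusters that the study presumes to be tumor cells, that which dominated NEJ723 had raised Epcam and Krt19. Whether cluster 32 was bile duct or tumor epithelium was not tested. A level is given as UMIs of a gene per 1000000 UMIs, summed over the cells of a class in a library (CPM), with exact Poisson intervals at 95% that cover counting error only. Because the kit counts molecules by their 3′ end, levels were not divided by gene length. Unnamed cells were 92.7% of the cells of NEJ709, 37.1% of NEJ634, 29.0% of NEJ638 and 17.1% to 20% of the other 4 libraries, and a single cluster with high mitochondrial RNA held nearly all of those of NEJ709. Barcodes called as cells in both libraries of a pair numbered 11 to 191. The estimated share of free RNA was at most 17.7% of the UMIs of a class, apart from the conventional dendritic-like (43.3%), endothelial-like (45.4%), macrophage-like (35.3%) and granulocyte precursor-like cells (24.9%) of NEJ634, and its part in the levels of that library was not tested beyond the subtraction given in the closing section. Many barcodes that stood for free RNA in NEJ634 were of the size allowed for cells, so these shares of NEJ634 are uncertain.

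The chemokine ligands gave 537342 UMIs in analysed cells, and a few genes made up most of them. Cxcl2 alone held 28.0% of these UMIs, the top 2 (Cxcl2 and Ccl5) 47.0%, and the top 6 (with Ccl4, Cxcl10, Ccl6 and Pf4) 81.0%. A gene was counted as measured where a class of at least 20 cells reached 10 CPM with at least 10 UMIs in any library. By this count 30 of the 46 members, or 65.2%, were measured, against 41.0% of all genes. Of the 16 others, 10 had no UMI in any cell, namely Ccl26, Ccl27b, both copies each of Ccl21b and Ccl21c, and the other copies of Ccl19, Ccl21a and Ccl27a. Ccl20, Cx3cl1, Cxcl17, Ccl21a, Ccl28 and Cxcl15 had 2 to 261 UMIs. The Ccl19, Ccl21 and Ccl27 copies are nearly identical in sequence, so reads that fit several copies may be missing from their counts, and their absence was not established.

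A class was taken to lead a gene in a library where its level was at least 2 times that of the next class (a class with no UMI being set to 3 UMIs), and a gene had a leading class where the same class led it in at least 3 libraries. Of the 23 members that could be tested in this way, 11 had a leading class (47.8%), beside 20.9% of all 11858 genes tested. Macrophage-like cells led Ccl24 in 7 libraries, Ccl6 in 4 and Pf4 in 3. NK-like cells led Xcl1 in 5 libraries and Ccl5 in 3, mesenchymal-like cells led Cxcl12 and Ccl19 in 3 each, neutrophil-like cells led Cxcl2 in 4, plasmacytoid dendritic-like cells led Ccl4 in 3, endothelial-like cells led Cxcl9 in 3 and conventional dendritic-like cells led Ccl22 in 3. The 7 calls that rest on 3 libraries depend on each of these, and with 1 library left out 5 to 11 of the 11 calls remained. The share of all tested genes with a leading class was then 15.5% to 20.1%. Hepatocyte-lineage-like cells led 31.4% of all genes that had a leading class, but led no chemokine ligand by this rule.

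**Figure D1:**
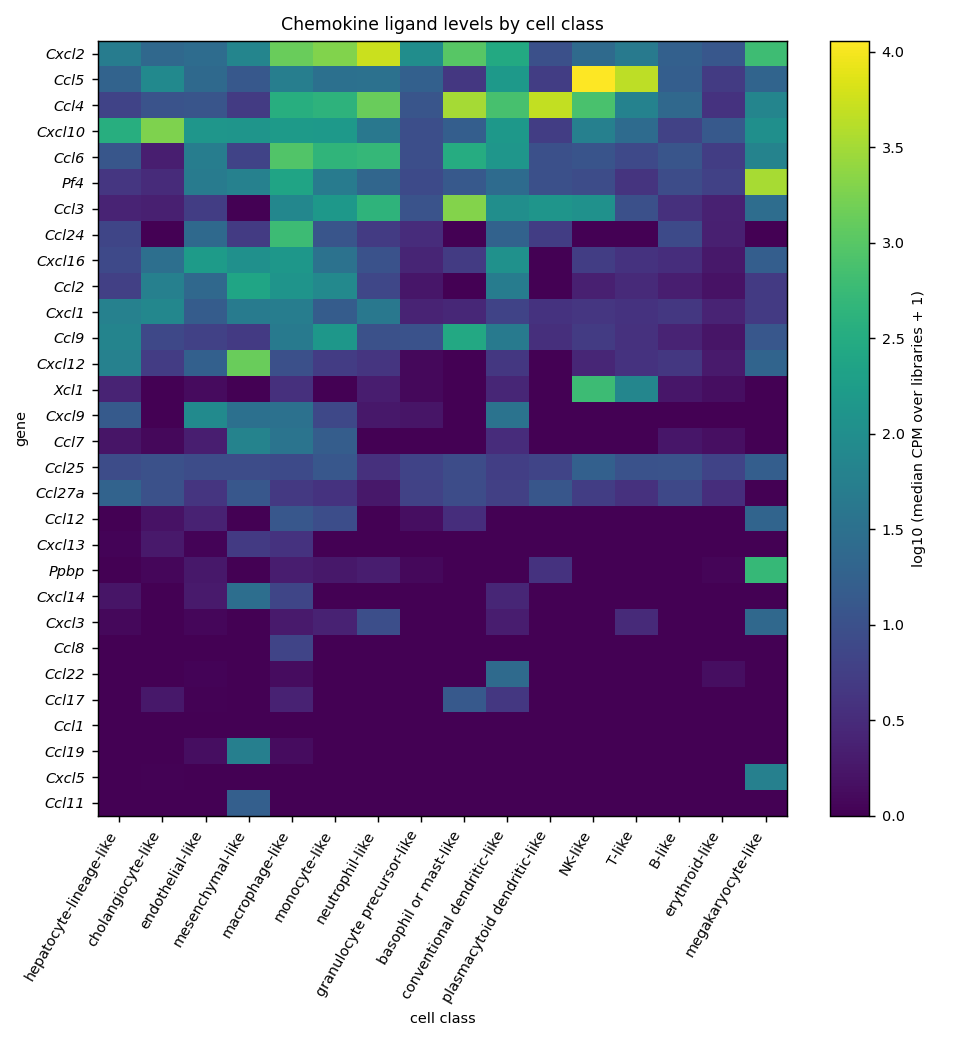
Level of the 30 measured chemokine ligands (rows, ordered by their UMIs in all cells) in 16 classes of cells (columns), as log10 of the median CPM over libraries plus 1. The columns of mesenchymal-like (3), cholangiocyte-like (2), basophil or mast-like (2) and megakaryocyte-like cells (1) rest on few libraries, whose number is given in brackets, and the bright cells of Cxcl2 in the neutrophil-like column, Ccl5 in the NK-like column and Ccl24 in the macrophage-like column are the levels given in the text.

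**Figure D2:**
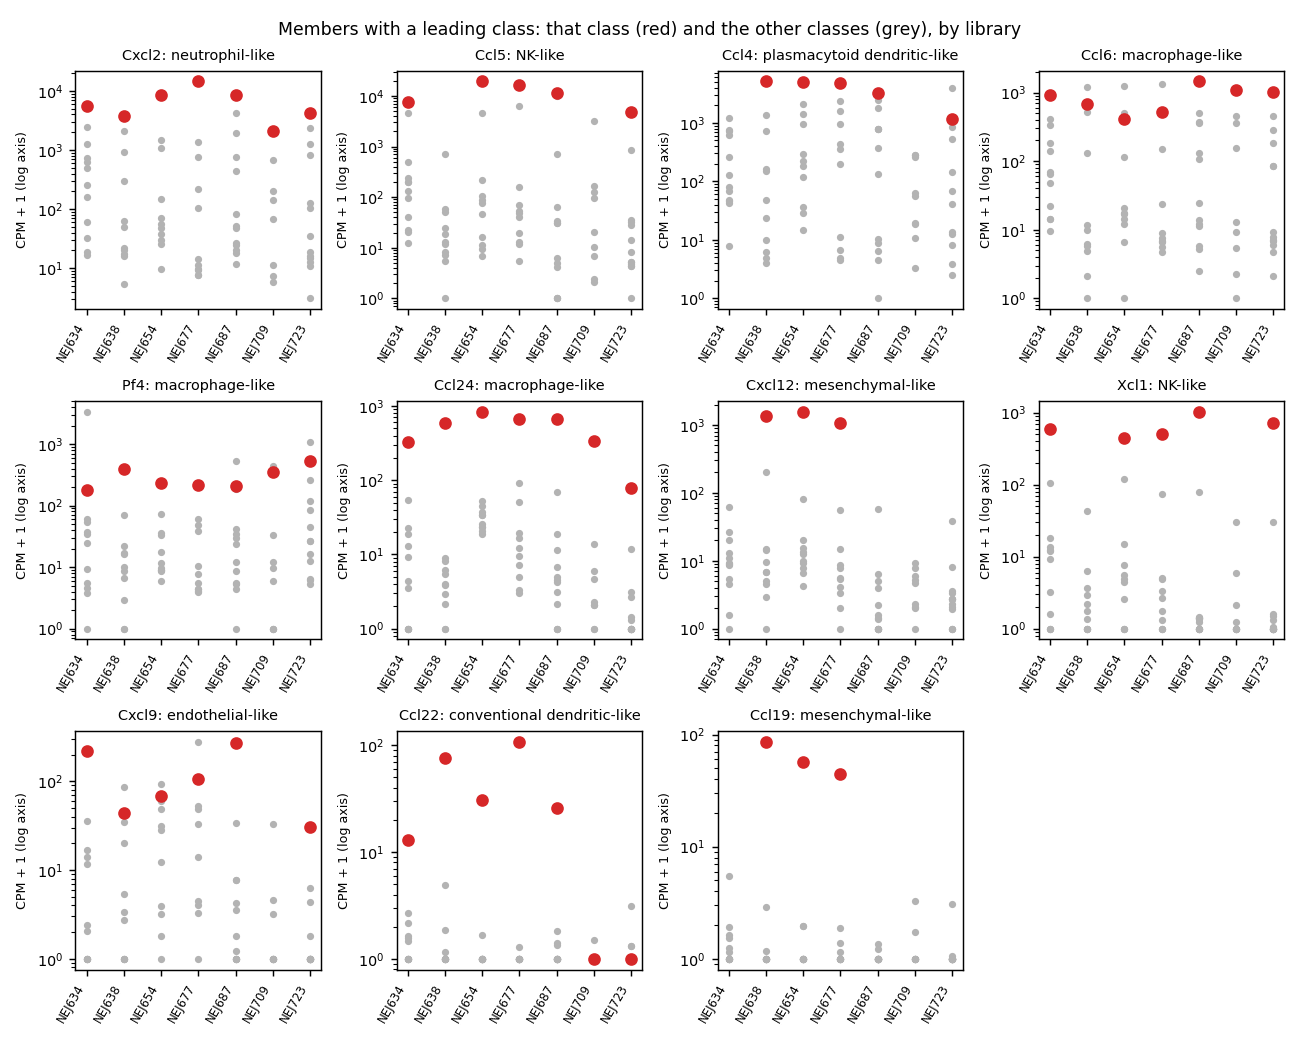
Level of the 11 ligands with a leading class, as CPM plus 1 on a log axis, in each of the 7 libraries. The leading class is red and every other class with at least 20 cells is grey, and Ccl24 is the member whose red point lies at least 2-fold above all grey points in all 7 libraries.

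Cxcl2 (chr5:90903871-90905938), a neutrophil attractant made on inflammatory activation, was the most abundant ligand, and neutrophil-like cells had its highest level in every library. The class was made of cluster 29 for 49.7% to 61.1% of its cells in NEJ634, NEJ687, NEJ709 and NEJ723 and for 90.6% to 100% in the other 3 libraries, and its other cells came from clusters led by genes such as Ltf, Mmp8 and Lcn2, which are granule genes of maturing neutrophils. The level in neutrophil-like cells was 5462 CPM in NEJ634, 8434 in NEJ687, 2095 in NEJ709, 4284 in NEJ723, 3745 in NEJ638, 8520 in NEJ654 and 14395 in NEJ677. Monocyte-like cells had 2467, 4191, 1981 and 2361 CPM in NEJ634, NEJ687, NEJ709 and NEJ723, and 919, 1076 and 761 CPM in NEJ638, NEJ654 and NEJ677. The neutrophil-like level was 10.6 times the next class in NEJ677 and 5.71 times in NEJ654, but only 1.06 times in NEJ709, where the intervals of neutrophil-like (2002 to 2191) and monocyte-like cells (1879 to 2087) overlapped. Macrophage-like cells had 1274, 1916, 678, 105, 2085, 1492 and 1353 CPM in the same library order. The 3 lowest monocyte-like levels were thus in NEJ638, NEJ654 and NEJ677, where macrophage-like cells stood second. With cells called by the percentile rule alone, which keeps only barcodes with many UMIs, the median neutrophil-like level over libraries with at least 20 such cells was 803 CPM in place of 5462, and Cxcl2 no longer had a leading class. It also had none with every barcode over 500 UMIs taken as a cell.

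Within cluster 29 alone, an alternative chosen after seeing the data, the order of the libraries changed. The Cxcl2 level there was 13302 CPM in NEJ634, 20990.5 in NEJ687, 6731 in NEJ709, 8486 in NEJ723, 4623 in NEJ638, 8520 in NEJ654 and 14772 in NEJ677. It was 2.22 to 10.9 times the next class in all 7 libraries, and NEJ687 now had the highest level and NEJ638 the lowest.

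The share of neutrophil-like cells with a Cxcl2 UMI, after thinning every cell to 500 UMIs, was 37.0% to 76.7% over the 7 libraries (55.8% to 82.4% before thinning). In B-like cells, which should lack Cxcl2, the thinned share was at most 2.72%. Neutrophil-like cells did not hold most of the Cxcl2 RNA of every library. They held 53.3% of Cxcl2 UMIs in NEJ687 and 42.4% in NEJ677, whereas macrophage-like cells held 27.9%, 37.4% and 41.9% in NEJ634, NEJ638 and NEJ654, monocyte-like cells 46.7% in NEJ723, and unnamed cells 68.7% in NEJ709. Immediate early and stress genes, which warm dissociation is known to raise, were high in neutrophil-like cells and in other classes. In neutrophil-like cells 13 such genes summed to 6942 CPM in NEJ634, 8386 in NEJ687, 4688 in NEJ709, 7620 in NEJ723, 9170 in NEJ638, 18433 in NEJ654 and 22101 in NEJ677. Monocyte-like cells had 7023, 8348, 7055, 8045, 7384, 11189 and 9155 CPM in this order. Neutrophil-like cells had the highest sum of the classes only in NEJ654 and NEJ677. Their sums are over the whole class with its mix of clusters, and the part of dissociation in the Cxcl2 levels was not tested.

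The other ELR ligands differed from Cxcl2 in the classes that held them. Cxcl1 (chr5:90891241-90893115), which attracts neutrophils through the same receptor, was highest in a different class from library to library. Its level was 126 CPM in the hepatocyte-lineage-like cells of NEJ634, 199 in the macrophage-like cells of NEJ687, 116 in the cholangiocyte-like cells of NEJ709, 77.5 in the monocyte-like cells of NEJ723, 301 in the mesenchymal-like cells of NEJ638, 100 in the neutrophil-like cells of NEJ654 and 47.9 in the mesenchymal-like cells of NEJ677. In the hepatocyte-lineage-like cells of NEJ638 Cxcl1 reached 259 CPM, while those of NEJ654 and NEJ677 had 21.1 and 5.85. No class led Cxcl1 in 3 libraries. Cxcl3, a close relative of Cxcl1 and Cxcl2, reached at most 30.4 CPM, in the monocyte-like cells of NEJ687, and had no UMI in monocyte-like cells of NEJ638, NEJ654 and NEJ677, which allows up to 6.04, 4.94 and 3.34 CPM (3 UMIs). Ppbp, a platelet granule chemokine, was at 523 CPM and Cxcl5 at 57.3 CPM in the 56 megakaryocyte-like cells, all from NEJ634.

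Pf4 (chr5:90772435-90773383), the platelet factor 4 of platelet granules, was found well outside megakaryocytes. The megakaryocyte-like cells of NEJ634 had 3356 CPM (3137 to 3585), 18.8 times the macrophage-like cells of that library. Macrophage-like cells had 178, 208, 347 and 538 CPM in NEJ634, NEJ687, NEJ709 and NEJ723 and 391, 235 and 214 CPM in NEJ638, NEJ654 and NEJ677, and led in the last 3. No megakaryocyte-like cells were found in those last 3 libraries. The monocyte-like level varied far more than the macrophage-like level: it was 1093 CPM (1067 to 1119) in NEJ723 and 433 in NEJ709, but 36.7 in NEJ634, 33.3 in NEJ687, 68.5 in NEJ638, 4.94 in NEJ654 and 47.9 in NEJ677. With cells thinned to 500 UMIs, 17.2% of monocyte-like cells at most had a Pf4 UMI, against at most 2.04% of B-like cells. The monocyte-like level of NEJ709 came from 9 of 78 cells. Plasmacytoid dendritic-like cells had 535 CPM in NEJ687, from 92 UMIs in 4 of 38 cells, and 256 in NEJ723, from 103 UMIs in 14 of 54 cells, but 8.96, 8.77 and 6.78 in NEJ638, NEJ654 and NEJ677.

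Cxcl9 (chr5:92321347-92328079) and Cxcl10 (chr5:92346638-92348889), the interferon-induced ligands of Cxcr3, had their highest levels in endothelial-like cells in NEJ634 and NEJ687, although for Cxcl10 in NEJ687 the interval overlapped that of hepatocyte-lineage-like cells. For Cxcl9 the endothelial-like level was 219 CPM in NEJ634, 270 in NEJ687, 29.4 in NEJ723, 43.4 in NEJ638, 67.9 in NEJ654 and 104 in NEJ677, and NEJ709 had fewer than 20 such cells. The endothelial-like call rested on NEJ634, NEJ687 and NEJ723. In NEJ723 the level came from 51 cells, and all analysed cells of that library held only 30 Cxcl9 UMIs. Conventional dendritic-like cells were above endothelial-like cells for Cxcl9 in NEJ654 (91.4 CPM, with intervals that overlapped) and NEJ677 (278 CPM), and hepatocyte-lineage-like cells in NEJ638 (85.6 CPM). Most endothelial-like cells came from cluster 11 in NEJ634, NEJ687 and NEJ723, from cluster 31 in NEJ638 and from cluster 20 in NEJ654 and NEJ677, so the class was not made of the same cells throughout.

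Cxcl10 had no leading class, and its highest level was in a different class in different libraries. Endothelial-like cells had 802, 459 and 56.8 CPM of Cxcl10 in NEJ634, NEJ687 and NEJ723, and 119, 67.9 and 152 CPM in NEJ638, NEJ654 and NEJ677. Hepatocyte-lineage-like cells had 628 CPM in NEJ634, 438 in NEJ687, 345 in NEJ638, 31.4 in NEJ654 and 14.6 in NEJ677. In NEJ709 and NEJ723 cholangiocyte-like cells came first, with 3449 CPM (3320 to 3582) and 361 CPM (352 to 371), and in NEJ677 neutrophil-like cells, with 464 CPM (392 to 545). These cholangiocyte-like cells may be bile duct or tumor epithelium, which was not tested. The 43 cholangiocyte-like cells of NEJ709 had a median of only 851 UMIs and 778818 UMIs in all, so most of its UMIs came from the cells above that median. Hepatocyte-lineage-like cells, the largest named class of NEJ634, held 47.8% of its Cxcl10 UMIs, and the free RNA of that library held Cxcl10 at 219 CPM, against 41.7 to 120 CPM in the other libraries. The barcodes that stood for free RNA in NEJ634 may include cells. The 10 interferon response genes summed to 489, 643 and 275 CPM in the endothelial-like cells of NEJ634, NEJ687 and NEJ723 and to 524, 653 and 823 CPM in those of NEJ638, NEJ654 and NEJ677. The part of interferon in the Cxcl10 levels was not tested.

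**Figure D3:**
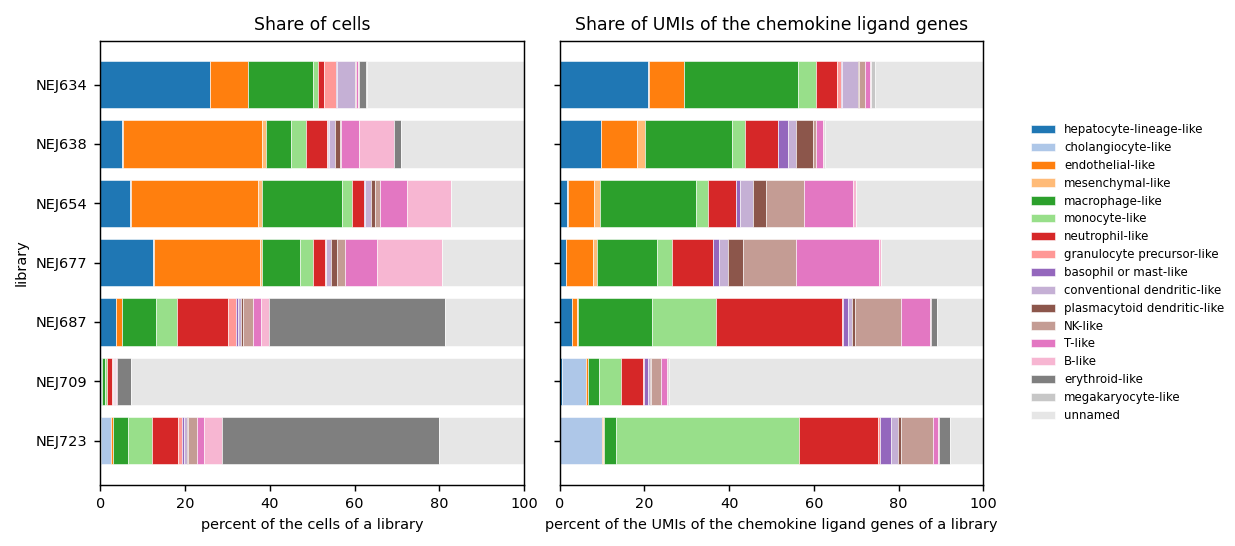
Share of the cells (left) and of the UMIs of all chemokine ligands (right) of each library that fell to each class, in percent, with unnamed cells in light grey. Neutrophil-like cells were 12.1% of the cells of NEJ687 but held 29.6% of its ligand UMIs, and erythroid-like cells, 51.4% of the cells of NEJ723, held a narrow band.

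Ccl5 (chr11:83525778-83530518), which attracts T cells, monocytes and eosinophils and is stored by cytotoxic lymphocytes, was the second most abundant ligand. NK-like cells had 7495 CPM in NEJ634, 11426 in NEJ687, 4725 in NEJ723, 19284 in NEJ654 and 16550 in NEJ677, and the other 2 libraries had fewer than 20 NK-like cells. T-like cells had 4559, 9897, 3139 and 872 CPM in NEJ634, NEJ687, NEJ709 and NEJ723 and 717, 4691 and 6227 CPM in NEJ638, NEJ654 and NEJ677. NK-like cells were above T-like cells in all 5 libraries that had both classes, by 1.15 times in NEJ687 and by 5.42 times in NEJ723, and these intervals did not overlap in any of the 5. Thinned to 500 UMIs, 68.9% to 97.6% of NK-like cells and 12.8% to 51.7% of T-like cells had a Ccl5 UMI, beside at most 0.612% of B-like cells. The NK-like cells were from cluster 23.3 in NEJ634, NEJ687 and NEJ723 and mostly from cluster 23.8 in NEJ654 and NEJ677, and the main T-like cluster was 23.0, 23.1 or 23.6 depending on the library, so that these levels do not follow the same cells from library to library. In NEJ638 unnamed cells held 87.9% of the Ccl5 UMIs, so its low T-like value does not stand for all lymphocytes of that library.

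Xcl1 (chr1:164931644-164935527), the ligand of Xcr1 on cross-presenting dendritic cells, was held by NK-like cells with 596, 1030 and 723 CPM in NEJ634, NEJ687 and NEJ723 and 443 and 509 CPM in NEJ654 and NEJ677. T-like cells came next in these 5 libraries, at 105, 78.8, 29.5, 117 and 72.0 CPM in the same order. The NK-like level was 3.79 to 24.5 times that of T-like cells. Ccl1, a T cell chemokine that binds Ccr8, was at 47.9 CPM in the NK-like cells of NEJ723, where its 56 UMIs were in 3 of 254 cells, and at 1.27 CPM in those of NEJ687, and had no UMI in those of NEJ634, NEJ654 and NEJ677, which allows up to 13.3, 12.4 and 6.82 CPM.

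Ccl4 (chr11:83662584-83664683) and Ccl3 (chr11:83647844-83649355), neighbours that attract monocytes and lymphocytes, were both present in basophil or mast-like and neutrophil-like cells and differed in plasmacytoid dendritic-like cells. Plasmacytoid dendritic-like cells had 3276 CPM of Ccl4 in NEJ687, 1179 in NEJ723, 5094 in NEJ638, 5059 in NEJ654 and 4873 in NEJ677. Their Ccl3 level was far lower, at 93.1, 72.0, 502, 132 and 156 CPM in the same order. Basophil or mast-like cells, present in NEJ687 and NEJ723 only with at least 20 cells, had 2420 and 3991 CPM of Ccl4 and 1532 and 2474 CPM of Ccl3.

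The call of plasmacytoid dendritic-like cells as the leading class of Ccl4 rested on NEJ638, NEJ654 and NEJ677 and was lost in 8 of 13 alternatives. Basophil or mast-like cells numbered 19, 6 and 12 in these libraries, too few to enter the comparison. Over all ligands they had 739 of 28306, 565 of 13807 and 1009 of 28085 UMIs. Plasmacytoid dendritic-like cells had 1264 of 223219, 1808 of 342184 and 2262 of 442687.

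Neutrophil-like cells also held both genes in every library. Their Ccl4 level was 713, 1822, 263 and 534 CPM in NEJ634, NEJ687, NEJ709 and NEJ723 and 1338, 2101 and 2359 CPM in NEJ638, NEJ654 and NEJ677. Their Ccl3 level was 361, 665, 79.9, 441, 299, 683 and 1041 CPM in this order. In the neutrophil-like cells of cluster 29 alone Ccl4 reached 4610 CPM (4473 to 4750) in NEJ687, above the plasmacytoid dendritic-like cells of that library, and was at 1514 CPM in NEJ634 and 754 in NEJ709. In NEJ634 and NEJ709, where plasmacytoid dendritic-like cells numbered fewer than 20, monocyte-like cells had the highest Ccl4 level of the whole classes, with 1187 and 280 CPM, below those of cluster 29 alone, and in NEJ709 this level could not be told from that of conventional dendritic-like cells (279 CPM). Across the 80 classes of libraries with at least 20 cells, Ccl4 and Ccl3 were the most alike of the tested members (Pearson r = 0.90 on log2 of CPM plus 1), followed by Ccl6 with Cxcl2 (0.86), Ccl2 with Cxcl16 (0.84) and Ccl5 with Xcl1 (0.81). These 80 points share libraries, depth and classes, and the values are descriptive.

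Ccl24 (chr5:135569937-135573049), an eosinophil attractant that acts on Ccr3, was led by macrophage-like cells in every library, at 323 CPM in NEJ634, 662 in NEJ687, 340 in NEJ709, 78.4 in NEJ723, 597 in NEJ638, 837 in NEJ654 and 670 in NEJ677. Its level was 6.11 to 51.5 times the next class, and NEJ723 stood lowest by far. Thinned to 500 UMIs, 2.23% to 29.4% of macrophage-like cells had a Ccl24 UMI, and at most 1.70% of B-like cells. Macrophage-like cells came mostly from cluster 13 in NEJ634, cluster 16 in NEJ687, NEJ709 and NEJ723, and cluster 35 in NEJ638, NEJ654 and NEJ677.

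Ccl6 (chr11:83587882-83593087) and Ccl9 (chr11:83572919-83578636), rodent CC ligands of Ccr1 that attract myeloid cells, lie next to each other and differed in some classes (r = 0.64 over the same 80 classes). Macrophage-like cells had 915, 1449, 1102 and 1009 CPM of Ccl6 in NEJ634, NEJ687, NEJ709 and NEJ723 and 670, 415 and 516 CPM in NEJ638, NEJ654 and NEJ677. Neutrophil-like cells had 332, 511, 355 and 184 CPM in the first 4 and 1219, 1232 and 1337 CPM in the last 3. The order of the 2 classes was thus macrophage-like above neutrophil-like in NEJ634, NEJ687, NEJ709 and NEJ723, and the opposite in NEJ638, NEJ654 and NEJ677, each with intervals that did not overlap. In cluster 29 alone the neutrophil-like level in the first 4 was 592, 839, 901 and 333 CPM, still below the macrophage-like level, with overlapping intervals in NEJ709, and neutrophil-like cells then became the leading class of Ccl6. The call of macrophage-like cells was also lost in 5 of 13 other alternatives. Monocyte-like cells stayed between 371 and 531 CPM in all 7 libraries.

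Ccl9 was highest in macrophage-like cells of NEJ634 (149 CPM) and NEJ709 (170 CPM), where monocyte-like cells had 101 and 146 CPM, with intervals that overlapped in NEJ709. In NEJ687 macrophage-like cells had 173 CPM and in NEJ723 44.4, and in NEJ638, NEJ654 and NEJ677 15.7, 7.82 and 11.3 CPM. Hepatocyte-lineage-like cells had the opposite order across libraries, with 15.1 and 9.93 CPM in NEJ634 and NEJ687 and 184, 121 and 67.5 CPM in NEJ638, NEJ654 and NEJ677. These hepatocyte-lineage-like cells were mostly cluster 0 in NEJ634 and NEJ687, cluster 33 in NEJ638 and cluster 36 in NEJ654 and NEJ677. This order therefore does not follow the same cells from library to library. Basophil or mast-like cells had 320 CPM in NEJ687 and 246 in NEJ723, and monocyte-like cells 95.1 to 163 CPM in all 7.

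**Figure D4:**
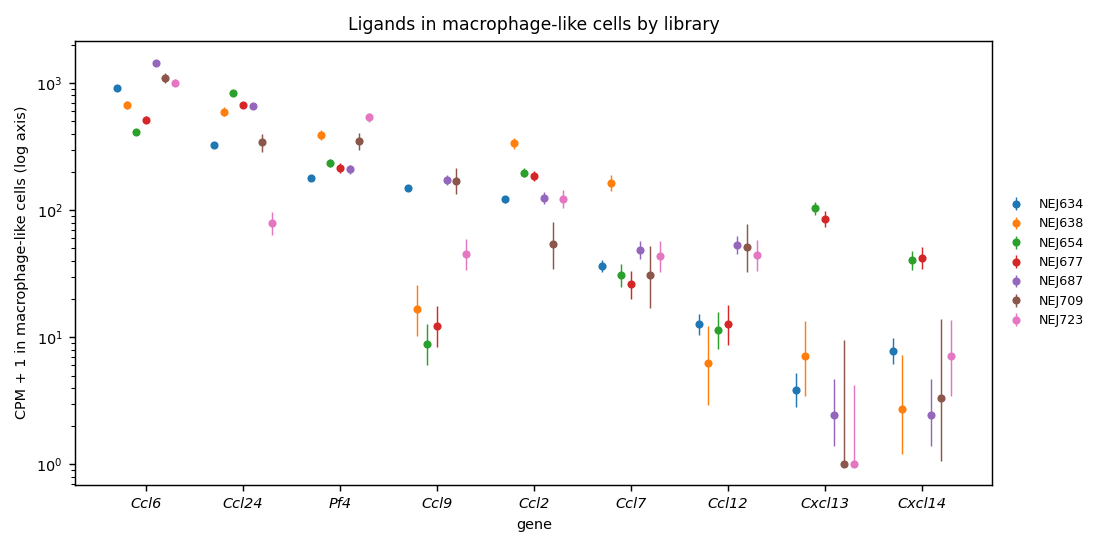
Level of 9 ligands in the macrophage-like cells of each library, as CPM plus 1 on a log axis, with bars for the exact Poisson 95% interval. The points of Cxcl13 and Cxcl14 for NEJ654 and NEJ677 stand above those of the other 5 libraries, and the points of Ccl9 for NEJ638, NEJ654 and NEJ677 stand below the others.

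Ccl2 (chr11:82035571-82037453), Ccl7 (chr11:82045712-82047525), Ccl12 (chr11:82101845-82103400) and Ccl8 (chr11:82115185-82116799) are neighbouring genes for monocyte attractants, the first 3 of which bind Ccr2. Macrophage-like cells had 121, 124, 52.9 and 122 CPM of Ccl2 in NEJ634, NEJ687, NEJ709 and NEJ723 and 337, 196 and 185 CPM in NEJ638, NEJ654 and NEJ677. Monocyte-like cells had 80.0, 65.8, 184 and 389 CPM and then 18.1, 52.7 and 174 CPM. Mesenchymal-like cells, which passed 20 cells in NEJ638, NEJ654 and NEJ677, had 124, 245 and 655 CPM, and the last of these was 3.55 times the next class.

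Ccl7 and Ccl12 were also found in these myeloid classes, at lower levels. Ccl7 was at 164 CPM in macrophage-like cells of NEJ638 and at 25.1 to 47.7 CPM in those of the other 6 libraries, and at 110 CPM in the monocyte-like cells of NEJ709 and NEJ723. Ccl12 was at 52.0, 50.6 and 43.6 CPM in macrophage-like cells of NEJ687, NEJ709 and NEJ723 and at 5.22 to 11.7 CPM in those of the other 4 libraries, while the monocyte-like cells of NEJ723 had 75.1 CPM. In NEJ634 the level in megakaryocyte-like cells, 19.1 CPM from 5 UMIs, was above the macrophage-like level. Ccl8 had a highest level of 13 CPM in the monocyte-like cells of NEJ723.

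Cxcl16 (chr11:70453983-70459984), a membrane-bound ligand of Cxcr6, had no leading class because endothelial-like, macrophage-like and conventional dendritic-like cells held it at like levels. Macrophage-like cells had 91.8, 141, 117 and 95.8 CPM in NEJ634, NEJ687, NEJ709 and NEJ723 and 180, 143 and 199 CPM in NEJ638, NEJ654 and NEJ677. Endothelial-like cells had 73.2, 164 and 96.7 CPM in NEJ634, NEJ687 and NEJ723 and 168, 214 and 212 CPM in NEJ638, NEJ654 and NEJ677. In NEJ638 conventional dendritic-like cells were highest, with 296 CPM (252 to 346). The top class was at most 1.81 times the next in any library.

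Ccl22 (chr8:94745590-94751699), which attracts Ccr4-bearing T cells and is made by dendritic cells, had its highest levels in conventional dendritic-like cells. They had 11.9 CPM in NEJ634, 24.6 in NEJ687, 75.5 in NEJ638, 29.9 in NEJ654 and 107 in NEJ677, and no UMI in NEJ709 and NEJ723. In these last libraries the class had 27 and 78 cells, and a count of 0 allows a level of up to 10.9 and 5.08 CPM (3 UMIs). Ccl17, its neighbour with the same receptor, reached 15.1 CPM in the conventional dendritic-like cells of NEJ634 and at most 6.30 CPM in those of the other libraries, and a level of 28.0 CPM in B-like cells of NEJ634 rested on 8 UMIs.

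Cxcl12 (chr6:117168535-117181367), the ligand of Cxcr4 that holds blood progenitors and B cells in their niche, was highest in mesenchymal-like cells wherever these could be measured. They had 1364 CPM (1226 to 1514) in NEJ638, 1571 (1444 to 1706) in NEJ654 and 1066 (942 to 1202) in NEJ677, which was 6.66, 19.4 and 19.6 times the next class. That next class was hepatocyte-lineage-like, at 205, 80.9 and 54.4 CPM. NEJ634, NEJ687, NEJ709 and NEJ723 had 4, 1, 0 and 15 mesenchymal-like cells, too few for a level, and in NEJ634 and NEJ687 hepatocyte-lineage-like cells came first with 60.1 and 56.6 CPM. In total these cells held 60.9% and 79.3% of the Cxcl12 UMIs of NEJ634 and NEJ687. Over all cells, Cxcl12 was below free RNA in NEJ687 (5.60 against 19.7 CPM) and NEJ723 (3.76 against 11.8 CPM). It was above free RNA in NEJ638 and NEJ654, and intervals overlapped in NEJ634, NEJ709 and NEJ677. Fewer mesenchymal cells and poorer release of such cells by dissociation cannot be told apart here.

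Ccl19 (chr4:42754525-42756577), a ligand of Ccr7 that guides T cells and dendritic cells in lymphoid tissue, was led by the same class, at 85.0 CPM in NEJ638, 55.6 in NEJ654 and 43.9 in NEJ677. Of its 127 UMIs in analysed cells, 53 were in mesenchymal-like cells. Ccl11, an eosinophil attractant on Ccr3, was at 73.4, 0 and 16.0 CPM in the mesenchymal-like cells of NEJ638, NEJ654 and NEJ677, from 23 UMIs in all, and the count of 0 allows up to 8.34 CPM.

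Cxcl13, which draws B cells through Cxcr5, and Cxcl14, whose receptor is less clear, were macrophage-like in NEJ654 and NEJ677. Cxcl13 was at 102 and 84.1 CPM there, at 6.09 CPM in NEJ638, at 2.87 and 1.44 CPM in NEJ634 and NEJ687, and had no UMI in macrophage-like cells of NEJ709 and NEJ723, which allows up to 6.90 and 2.61 CPM. Cxcl14 was at 39.4 and 41.2 CPM in NEJ654 and NEJ677 and at 1.44 to 6.81 CPM in the other 5 libraries. In both genes NEJ638 lay with the low libraries. Ccl27a, a skin-homing ligand of Ccr10, was at 10.1 and 11.3 CPM in the hepatocyte-lineage-like cells of NEJ634 and NEJ687 and at 18.4, 27.3 and 43.8 CPM in those of NEJ638, NEJ654 and NEJ677. Ccl25, the ligand of Ccr9, was never above 26.9 CPM in any class and had no leading class.

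The receptors were read by the same rule. Of 24 receptor genes, 20 were measured, 19 could be tested and 9 had a leading class, beside the same 20.9% of all genes. Cxcr2, the receptor of the ELR ligands, was led by neutrophil-like cells in all 7 libraries, at 339 CPM in NEJ634, 403 in NEJ687, 318 in NEJ709, 344 in NEJ723, 376 in NEJ638, 700 in NEJ654 and 779 in NEJ677. This class also led Ccr1, the receptor of Ccl3, Ccl6 and Ccl9, in 6 libraries (256 to 480 CPM over all 7). It led Ccrl2, a receptor that binds chemerin, in 5 (324 to 1363 CPM over all 7). The class with the highest Cxcl2 level thus also had the highest level of its receptor.

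Of the other receptors with a leading class, Xcr1 was led by conventional dendritic-like cells in all 7 libraries (31.9 to 226 CPM), while its ligand Xcl1 was led by NK-like cells. Cxcr6, which binds Cxcl16, was led by T-like cells in 4 libraries (4.11 to 164 CPM over all 7), Cx3cr1 by monocyte-like cells in 6 (26.6 to 205 CPM), Cxcr5 by B-like cells in 3 (10.5 to 69.0 CPM), and Ackr2, a decoy receptor that clears CC ligands, by endothelial-like cells in 5 (22.6 to 62.2 CPM). Ccr9 was led by plasmacytoid dendritic-like cells in 5 libraries, at 879 CPM in NEJ687, 509 in NEJ723, 2285 in NEJ638, 593 in NEJ654 and 639 in NEJ677.

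Of the receptors that had no leading class, some were spread over several classes and others were near 0 outside a single class. Cxcr4 was at 277 to 2292 CPM in B-like cells, where NEJ638 stood far above the others, and at 146, 135, 172, 199, 893, 562 and 549 CPM in neutrophil-like cells of NEJ634, NEJ687, NEJ709, NEJ723, NEJ638, NEJ654 and NEJ677. Ccr2 was at 171 to 363 CPM in monocyte-like cells. Ccr3, the receptor of Ccl24 and Ccl11, was at 5.23 to 52.9 CPM in macrophage-like cells with a median of 17.8, against a median of at most 3.61 in any other class. Ccr6 had a median of 19.8 CPM in B-like cells and at most 1.59 in any other class. Ccr7 was at 125 to 495 CPM in B-like cells, at 65.8 to 326 CPM in T-like cells and at 7.25 to 179 CPM in conventional dendritic-like cells. Ccr4, Ccr8, Ccr1l1 and Cxcr1 were not measured, and Ccr10, Cxcr3, Ackr1, Ackr3 and Ackr4 were measured without a leading class.

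**Figure D5:**
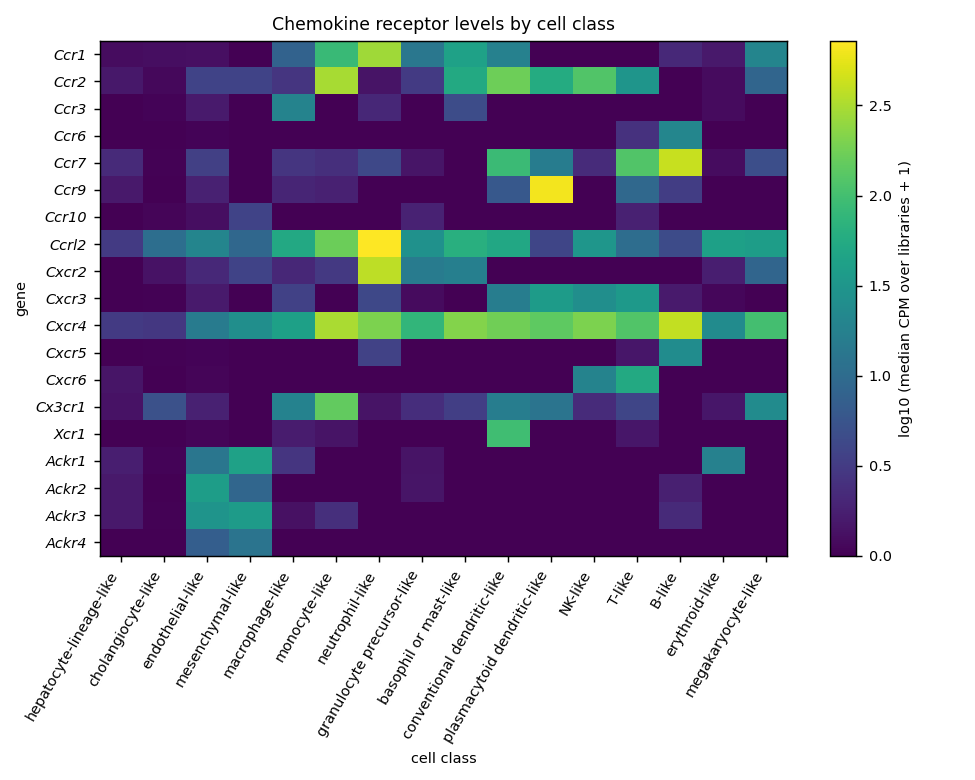
Level of 19 of the 20 measured chemokine receptors (rows) in 16 classes of cells (columns), as log10 of the median CPM over libraries plus 1. Cxcr2 is bright in the neutrophil-like column, Ccr9 in the plasmacytoid dendritic-like column and Xcr1 in the conventional dendritic-like column.

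Over all cells of a library the ligands were compared with free RNA, taken from the barcodes at ranks 45000 to 90000 by UMIs. In NEJ634, 67059 barcodes passed 500 UMIs and the mitochondrial limit. Ranks 45000 to 67059 of NEJ634 were thus of the size allowed for cells and may hold cells. Free RNA taken this way held 25652804 UMIs in NEJ634, beside 1034197 to 14577833 in the other libraries. Of 210 pairs of a measured ligand and a library, the level in cells was above that in free RNA in 79, below it in 17, and the intervals overlapped in 114. The same count was not made over all genes, so these numbers do not set the ligands apart. Whether intervals overlap also depends on the UMIs of the gene and of the free RNA. Ccl6 was higher in cells in all 7 libraries and Cxcl2 and Ccl5 in 6 each, whereas Cxcl1 was higher in free RNA in 3. The stress genes in macrophage-like cells summed to 4032, 3755, 4588 and 1372 CPM in NEJ634, NEJ687, NEJ709 and NEJ723 and to 13564, 11062 and 8471 CPM in NEJ638, NEJ654 and NEJ677, and the interferon genes to 505, 741, 849 and 401 CPM and to 975, 1563 and 1532 CPM. NEJ723, which had the lowest Ccl24 and Cxcl2 levels in macrophage-like cells, had the lowest of both sums. NEJ687, with the next lowest stress sum, had a higher Cxcl2 level in these cells than every library but NEJ638. The part of the stress or interferon genes in these levels was not tested.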

How the data were processed

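The values deposited for each library were counts of UMIs for every gene in every barcode, neither normalized nor filtered for cells, from the 3′ single-cell kit of 10x Genomics. Their headers name Cell Ranger 4, while the labels name Cell Ranger 6.0 and the methods of the study count introns, and the genome build was not given in the sources used here. Coordinates are therefore those of the GENCODE M21 annotation (GRCm38).

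Cells were called by the percentile rule of Cell Ranger (above 1 in 10 of the UMIs at percentile 99 of the 3000 largest barcodes) and, for barcodes of at least 500 UMIs and up to 20000 per library, by a Monte Carlo test with 10000 draws against free RNA (ranks 45000 to 90000) at an adjusted p of 0.01. More barcodes than this limit stood for testing in NEJ634, NEJ709 and NEJ723. The filters then required more than 500 UMIs with a mitochondrial share of 20% or less, which left 7122 to 20298 per library with a median of 2092 to 4631.5 UMIs. Of the barcodes that set the free RNA of a library, 748 to 12459 were cells of another library. Scrublet marked at most 0.0631% of cells of a library and thus did not work, so the cells with the highest scores were removed at the rate usual for this number of cells. Counts were scaled to 10000 per cell, log-transformed and clustered on 2000 variable genes, 40 components and 15 neighbours with Leiden at resolution 1 in scanpy 1.11.5 with the ligand, receptor, stress and interferon genes left out. Mixed clusters were split further, and a cluster was named from listed markers where their mean log2 fold was at least 1 over other clusters and 1 above the next class with at least 3 markers raised. It stayed unnamed where its 10 leading genes held at least 2 more markers of another class than of its own. Shallow clusters with no marker of their own there and pancreas-like clusters also stayed unnamed. Cluster 10.5 (198 cells, 97.0% from NEJ687), highest in neutrophil markers, was thus left out of the neutrophil-like cells. The data had already been seen when these limits on naming were chosen. Classes are called "-like" because no reference cells were used.

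The members and the lists of receptors, stress genes, interferon genes and markers were chosen with earlier results of these data known. The named genes were all measured members. Values by library were given for those with a leading class and for the 15 measured members with the most UMIs. Of other genes only the listed receptors and response genes and, for some clusters, some of their leading genes were named. Intervals for counts and shares are exact (scipy 1.17.1). The rule for calls was run on simulated Poisson counts with known answers. These counts held neither free RNA nor mixed clusters, so they cannot show how often such effects make a wrong call here. Alternatives changed cell calling, mitochondrial limit, doublet removal, clustering, total, weighting, free RNA, shared barcodes, class size, minimum level and fold. Promoters came from RefSeq. The levels of 1 receptor are not reported here. The labels name no replicates, so no value has a replicate error.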

Additional observations from a re-analysis of the deposited data

How the results depend on the processing

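Under 13 alternatives the number of ligands with a leading class ranged from 5 to 14, beside 11 in the report, and lay within 1.5 times of it in all but the stricter fold: with at least 3 times the next class it was 5, losing Cxcl2, Cxcl9, Ccl22, Ccl5, Ccl6 and Ccl4. The share of all tested genes with a leading class changed too. It was 11.9% with the stricter fold and 9.59% with every library clustered alone, beside 20.9% in the report. In the other alternatives it was 16.8% to 22.9%. Of the 11 calls, Ccl24 in macrophage-like and Xcl1 in NK-like cells were kept in all 13 alternatives. All 11 were kept when shared barcodes were left out, when no doublets were removed and with no minimum level, and 5 with every library clustered alone (Ccl19, Pf4, Cxcl9, Ccl22, Ccl6 and Ccl4 were lost). The Ccl4 call was lost in 8 of the 13, Ccl6 in 5 (to neutrophil-like cells in 2 of them), Ccl19 in 4, Cxcl2, Pf4 and Cxcl9 in 3 each, Ccl22 in 2, and Ccl5 and Cxcl12 in 1 each. Cxcl12 passed to hepatocyte-lineage-like cells with classes of at least 50 cells, and Pf4 to megakaryocyte-like cells with every library clustered alone. The number of measured ligands ranged from 27 to 34, and the number of receptors with a leading class from 6 to 13. The median share of cells with a UMI was 13.6% without thinning, beside 3.17% with it, since thinning lowers the depth of each cell.

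Of 121 levels of the 11 ligands in their leading class, recomputed as medians over libraries, 107 were within 1.5 times of the reported median. Cxcl2 in neutrophil-like cells moved from 5462 CPM to 803 with the percentile rule alone, to 3494 with every barcode over 500 UMIs and to 8968 with equal weight for each cell. Ccl19 in mesenchymal-like cells moved from 55.6 CPM to 27.9 to 35.4 in 5 alternatives, Xcl1 in NK-like cells from 596 to 912 to 1030 in 3, Ccl22 from 24.6 to 14.4 and 52.9 in 2, and Ccl6 in macrophage-like cells from 915 to 566 with every library clustered alone. The cause was not tested. Levels above free RNA numbered 81 in place of 79 pairs when cells of other libraries were left out of the free RNA. No paired analysis was possible because the labels give neither groups nor replicate numbers, and therefore libraries rather than replicates were left out in turn, with the clusters kept and as an alternative chosen after seeing the data. The number of ligands with a leading class was then 5 to 11: 6 without NEJ638 (losing Ccl19, Pf4, Cxcl12, Ccl22 and Ccl4), 5 without NEJ654 or NEJ677 (losing Ccl5 too), 9 without NEJ723 (Cxcl9 and Ccl5 lost), 10 without NEJ634 or NEJ687 (Cxcl9 lost) and 11 without NEJ709. The share of all tested genes was 15.5% without NEJ638, 16.2% without NEJ654, 15.9% without NEJ677 and 18.2% to 20.1% without any other library. With neutrophil-like cells of cluster 29 alone, also chosen afterwards, 12 ligands had a leading class, beside 21.6% of all tested genes. Cxcl2 was kept, Ccl3 gained and Ccl6 led by neutrophil-like in place of macrophage-like cells.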

Other observations

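Some clusters that could not be named held the ligands of the lymphocyte classes at high levels. The highest NK-like levels in a library were 19284 CPM of Ccl5, 1611 of Ccl4, 1030 of Xcl1 and 249.93 of Ccl3. Cluster 23.7, with 231 cells mostly of NEJ654 and led by Cd3g, Gzmb, Gzma and Cd7, had Ccl5 at 17884 CPM, Ccl4 at 4574 CPM, Xcl1 at 2006 CPM and Ccl3 at 427 CPM. Cluster 23.4, with 307 cells of which nearly all came from NEJ638, had Gzmb, Il2rb and Ifng among its leading genes and Ccl5, Ccl4, Xcl1 and Ccl3 at 11262, 1895, 897 and 307 CPM. These clusters carried markers of both T and NK cells and therefore received no name.

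Cluster 4, with 352 cells all from NEJ634 and with Fabp6, Saa3 and Afp but also the granulocyte precursor genes Mpo and Ctsg among its leading genes, had Cxcl10 at 1176 CPM and Pf4 at 548 CPM. Cluster 27.4, with 85 cells and stellate cell genes such as Ecm1, Colec11, Dcn and Lrat in the lead, also had raised macrophage markers (a mean log2 fold of 2.27, beside 3.22 for mesenchymal markers) and a median of 9792 UMIs, and had Cxcl12 at 868 CPM beside Cxcl2 at 664 CPM and Ccl24 at 385 CPM, which elsewhere were led by neutrophil-like and macrophage-like cells. Cluster 19, with 2361 cells mostly of NEJ723 and a median of 937 UMIs, had Pf4 at 650 CPM. It was led mainly by Gm26917, histone and Snhg genes beside the platelet gene Gp9, and no class reached a mean log2 fold of 1 in its markers. Clusters 27.1 and 27.3, with 233 and 384 cells and Kupffer cell genes such as Clec4f and Cd163 in the lead, also had raised endothelial markers (a mean log2 fold of 1.97 and 2.04, beside 2.61 and 2.96 for macrophage markers), and had Ccl24 at 413 and 519 CPM and Ccl6 at 458 and 341 CPM.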
